A study of Drosophila melanogaster with 4 samples.

Results

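The genes described here belong to the Drosophila cell death pathway. Their RNA was measured in S2 cells with and without heat shock, and they were chosen by name as 10 of the 17697 genes of the expression tables. They were the death activators rpr, hid, grim and skl, the inhibitor Diap1, the caspases Dronc, Drice and Dcp-1, the caspase scaffold Dark, and the transcription factor p53. All 10 names matched a gene. S2 cells are a wild type line derived from late fly embryos, and poly(A) RNA was sequenced with 50-base reads in 2 untreated libraries and 2 heat shock libraries. All cells were grown at 27°C in the same medium, and heat shock cells were kept at 37°C for 1 h and then returned to 27°C for 1 h. The heat shock replicates were lysed separately. Nothing says this of the untreated ones, so the p-values measure the spread between these libraries, which may be technical.

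In flies, living cells are protected from caspases by Diap1, a ubiquitin ligase that binds these proteases and marks them for removal. Reaper, Hid, Grim and Sickle carry a short amino-terminal motif that binds Diap1 and frees the caspases. Dronc is the initiator caspase, which is activated on the scaffold protein Dark, and it cleaves the effector caspases Drice and Dcp-1, which take the cell apart. p53 induces several of the death activators after DNA damage. RNA levels do not report caspase activity, which was not measured in these libraries.

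The libraries held between 10221418 and 11988483 estimated counts. The 6 Hsp70 copies together, which encode the major inducible chaperone, took 0.0671% and 0.0699% of the counts in the untreated libraries against 12.9% and 14.3% after heat shock. Their summed log2 fold change was 8.17 ± 0.15 (SE), and those of Hsp26 and Hsp83 were 7.41 ± 0.11 and 3.49 ± 0.11. Heat shock messages filled that much of the library, which leaves less of it for other genes. The scaling of the libraries bears on every fold change given here. CPM values below are counts scaled to the library total after correction by TMM, a factor that centres the bulk of genes, and the median log2 fold change of all 8784 tested genes was then -0.02. With plain totals that median was -0.56, and with totals that leave out heat shock genes it was -0.215, still below 0. What else moved the median was not tested. Of the 9 markers of hemocyte-like cells, srp, crq and Col4a1 were clearly present, Hml and Pxn were low, He had 0 counts in all libraries, and NimC1, eater and Sr-CI had at most 0.64 CPM. Bulk RNA cannot tell a smaller amount of RNA per cell from fewer cells of a kind.

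Among the 8 genes with enough counts to be tested, 4 were higher after heat shock (rpr, hid, Dark and Dcp-1) and 2 were lower (Diap1 and Drice). These are calls of the quasi-likelihood test of edgeR at an adjusted p-value under 0.05 over all tested genes. They are 50% and 25% of the 8, while 21.4% of all genes tested were called higher and 18.6% lower. Dronc and p53 did not pass the threshold, and grim and skl had too few counts for a test. By plain totals, 1 of the 8 was called higher and 4 were called lower, where 8.75% of all genes were called higher and 71.2% lower. The counts in each direction depend on the scaling.

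The order of the genes was read from TPM, which is per transcript length and allows genes of a library to be compared. In untreated cells Diap1 stood first, with 282 and 255 TPM, above 97.0% of all genes in the tables. Drice followed with 73.3 and 69.9 TPM. The inhibitor and the main effector caspase were thus the most abundant messages of the 10 in each of the 4 libraries.

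Dcp-1 (27.6 and 30.9 TPM) and Dark (31.4 and 25.7 TPM) came next in untreated cells and did not differ beyond their spread. Below them stood p53 with 19.1 and 18.1 TPM, hid with 14.4 and 15.8, Dronc with 14.2 and 11.6, and rpr with 7.01 and 11.1. These neighbours did not overlap, although hid and Dronc were only 0.28 TPM apart at their nearest. skl and grim were at the bottom, with at most 0.77 and 0.10 TPM.

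After heat shock rpr had moved up from the eighth to the fifth place, level with hid, with 13.6 and 17.7 TPM against 15.0 and 15.7 TPM. p53 and Dronc stood below both. Dark and Dcp-1 again overlapped, and the 2 highest and the 2 lowest genes were the same as in untreated cells.

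**Figure D1:**
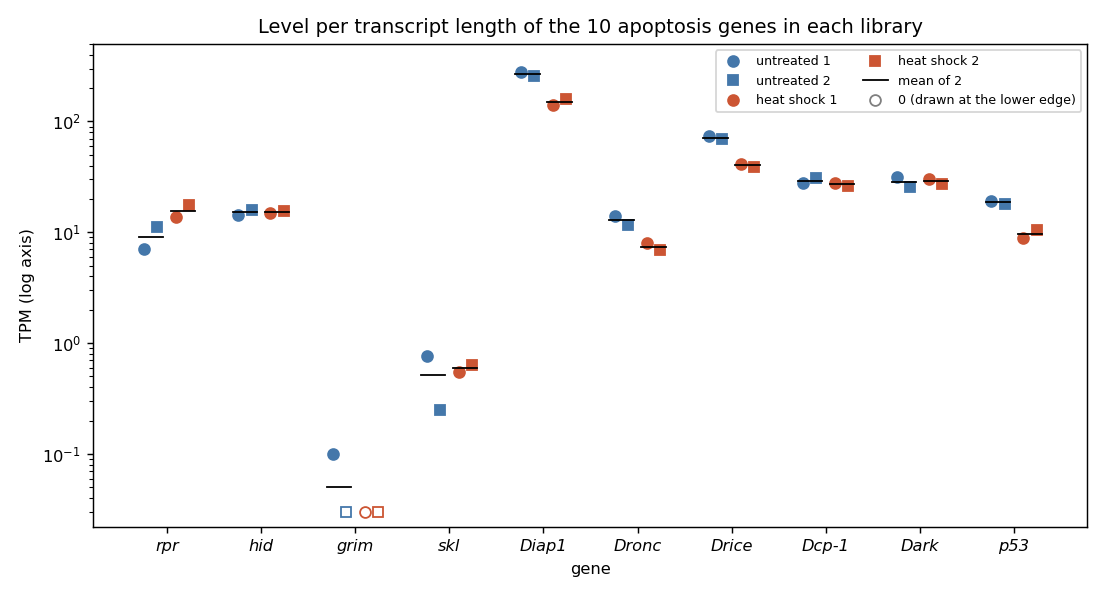
Levels of the 10 genes in TPM on a log axis, with 1 point per library and a line at the mean of the 2 libraries of a group. Diap1 and Drice are the 2 highest genes in every library, rpr is the only gene of the tested 8 with both heat shock points above both untreated points, and grim has 0 in 3 libraries (open symbols).

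Reaper is the smallest of the death activators and is switched on in cells about to die in the fly. The gene rpr (FBgn0011706, 3L, 18397535 to 18398435, minus strand, 1 transcript, no overlapping gene) had 35 and 56 estimated counts without treatment against 79 and 90 after heat shock. On the CPM scale these were 2.80 and 4.57 against 7.88 and 10.3. Both heat shock libraries lay above both untreated ones, and the untreated pair was spread more widely in relative terms. The log2 fold change was 1.29 ± 0.25 (SE, n = 2 per group, adjusted p = 0.0045, edgeR), a rise of 2.45-fold. It was the only member called in the same direction in all alternative fits run, with log2 fold changes between 0.75 and 1.69 and adjusted p-values up to 0.0241 with the tools tried. The pooled counts of 91 and 169 give an exact 95% interval of the ratio of 1.89 to 3.20, which covers counting error only.

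Hid is the death activator that growth factor signalling holds in check in fly tissues. The gene hid (FBgn0003997, 3L, 18167745 to 18185641, minus strand, 2 transcripts) had 216 and 240 counts without treatment against 289 and 232 after heat shock. In CPM, the values were 17.3 and 19.6 without treatment against 28.8 and 26.6 after heat shock, without overlap. The fitted log2 fold change was 0.59 ± 0.11 (SE, n = 2 per group, adjusted p = 0.0031, edgeR). In TPM the 4 libraries of hid were all between 14.4 and 15.8, and the groups overlapped. With plain totals the log2 fold change was 0.06 (adjusted p = 0.658, edgeR), so that hid kept its share of the library and rose only relative to the median gene. The mean transcript length assigned to hid gave the longer of its 2 transcripts a share of 22.6% and 23.4% without treatment against 38.1% and 18.7% after heat shock, and the 2 heat shock libraries lay on either side of the untreated ones.

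Grim and Sickle complete the group, and both were nearly silent. The gene grim (FBgn0015946, 3L, 18302719 to 18304417, minus strand) had 1 count in the first untreated library and 0 in the other 3. A count of 0 allows up to 3 counts, or 0.245 CPM in the second untreated library and 0.299 and 0.344 CPM after heat shock. Expression of grim was therefore not detectable at this depth in either group, and no fold is given. Annotated non-coding genes cover 44.1% of its exonic bases on the opposite strand and a further stretch on the same strand, and they had at most 1 count in a library.

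The gene skl (FBgn0036786, 3L, 18438561 to 18439942, minus strand) had 6 and 2 counts without treatment against 5 and 5 after heat shock. The ratio of pooled counts, scaled as the other CPM values, was 1.65 with an exact 95% interval of 0.59 to 4.81. At this depth no difference was detectable for skl, and a rise such as that of rpr lies inside the interval.

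These 4 genes lie on 1 stretch of chromosome arm 3L, all on the minus strand, over 272.2 kb from the end of hid to the start of skl. The starts of hid and grim are 118.8 kb apart, those of grim and rpr 94.0 kb, and those of rpr and skl 41.5 kb. Another 13 annotated genes lie between them. Of these only lncRNA:CR45936 passed the filter on low counts, with 22, 13, 10 and 14 counts in the 2 untreated and then the 2 heat shock libraries. Its log2 fold change was -0.14 ± 0.40 (SE, adjusted p = 0.803, edgeR). The other 12 had at most 1 count in any library. In this stretch RNA was seen mainly from hid, at an end, and from rpr, whose start is 41.5 kb from that of skl.

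**Figure D2:**
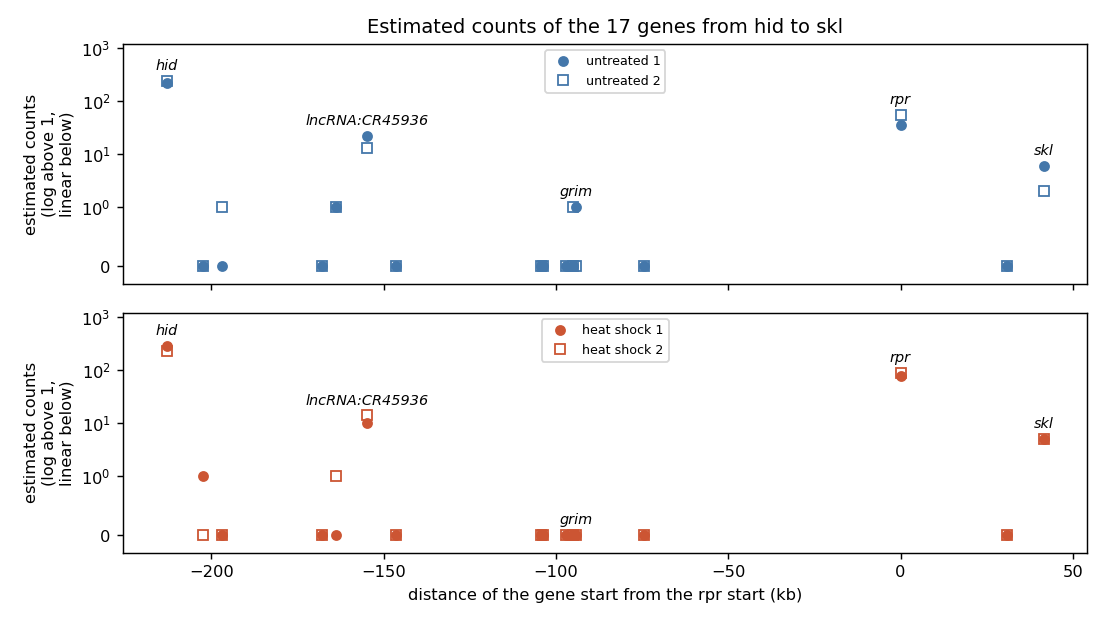
Estimated counts of the 17 genes from hid to skl by the distance of their start from that of rpr in kb, with the untreated libraries in the upper panel and the heat shock libraries in the lower panel (log axis above 1 count). hid and rpr stand out in all 4 libraries, with 216 to 289 and 35 to 90 counts, lncRNA:CR45936 and skl are low, and the remaining genes have 0 or 1 count.

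Diap1 (FBgn0260635, 3L, 16038410 to 16051034, minus strand, 6 transcripts), the inhibitor that the death activators bind, had 3287 and 3008 counts without treatment against 1917 and 1910 after heat shock. The CPM values were 263 and 246 without treatment against 191 and 219 after heat shock, without overlap. On the log2 scale the difference was -0.31 ± 0.08 (SE, n = 2 per group, adjusted p = 0.0144, edgeR), and without the first heat shock library it was -0.22 with an adjusted p of 0.0842. In TPM, which is a share of the whole library, Diap1 went from 282 and 255 to 142 and 161. An antisense gene, asRNA:CR45889, covers 347 of its 3143 exonic bases, held 1.14% of the counts of Diap1 without treatment against 2.43% after heat shock, and was itself called higher (0.77 ± 0.25, adjusted p = 0.0365, edgeR).

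The level of each gene relative to Diap1 in the same library does not depend on how libraries are scaled. This ratio was chosen after the values were seen, and with 2 against 2 libraries an exact permutation test could not go below a two-sided p of 0.333, so it is given as a description. rpr stood at 0.0249 and 0.0435 of Diap1 without treatment against 0.0963 and 0.110 after heat shock, a 3.13-fold change of the geometric means. For hid the ratio went from 0.0512 and 0.0619 to 0.106 and 0.0974. The 4 death activators summed amounted to 0.0792 and 0.106 of Diap1 without treatment against 0.206 and 0.211 after heat shock. Put the other way, 12.6 and 9.40 Diap1 messages stood against each death activator message without treatment, as opposed to 4.86 and 4.73 after heat shock. The groups did not overlap in any of these ratios. How many of all genes also separate in their ratio to Diap1 was not counted, so the separation cannot be called particular to the death activators.

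Since Diap1 itself fell, most genes gained on it, and the median change of this ratio over 8678 tested genes was 1.22-fold. Dark and Dcp-1 went from a mean ratio of 0.106 to 0.193 and of 0.110 to 0.181, or 1.81-fold and 1.66-fold. The other inhibitors Diap2 and Bruce also gained without overlap, from 0.319 to 0.408 and from 0.281 to 0.327, or 1.28-fold and 1.16-fold. Drice and Dronc did not separate: Drice was at 0.260 and 0.274 of Diap1 without treatment against 0.293 and 0.242 after heat shock. p53 went from 0.0677 and 0.0707 to 0.0627 and 0.0655, which is without overlap but a small step.

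**Figure D3:**
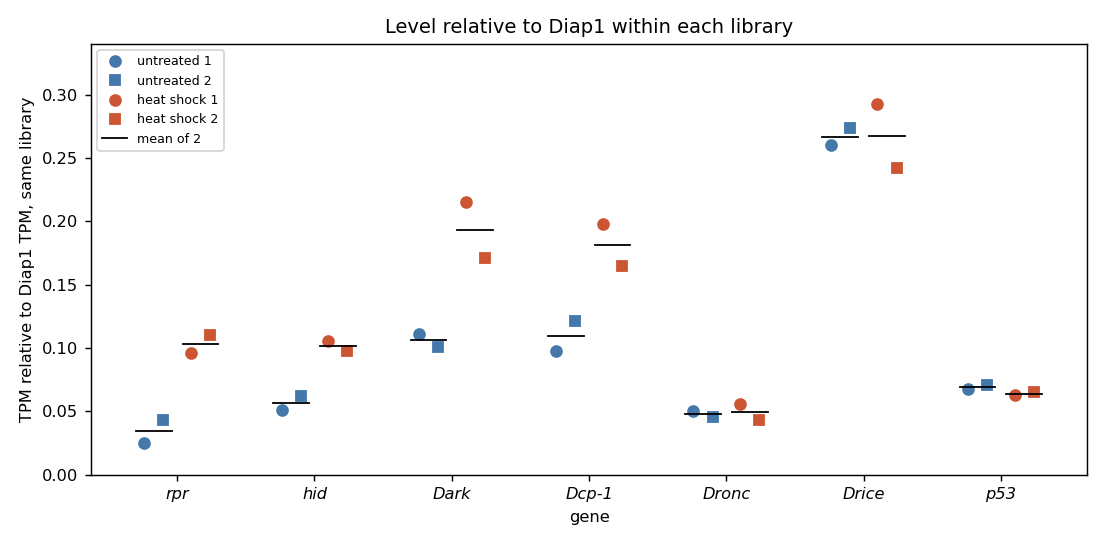
TPM of 7 genes divided by the TPM of Diap1 in the same library, with 1 point per library and a line at the mean of the 2 libraries. rpr, hid, Dark and Dcp-1 are above their untreated values in both heat shock libraries, while the points of Dronc and Drice overlap between the groups.

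Dronc, the initiator caspase (FBgn0026404, 3L, 9968479 to 9971002, plus strand), had 163 and 135 counts without treatment against 106 and 81 after heat shock. In CPM it was at 13.0 and 11.02 against 10.6 and 9.28, with groups that lay close together without overlap. The difference of -0.27 on the log2 scale ± 0.15 (SE, n = 2 per group, adjusted p = 0.174, edgeR) did not pass the threshold. With plain totals it was -0.81 with an adjusted p of 0.000442. Its difference from the median gene was not resolved.

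Dark, the scaffold on which Dronc is activated (FBgn0263864, 2R, 17020027 to 17026703, plus strand, 2 transcripts), had 879 and 725 counts without treatment against 989 and 784 after heat shock. In CPM it was at 70.4 and 59.2 without treatment against 98.7 and 89.8 after heat shock, without overlap. The log2 fold change was 0.54 ± 0.09 (SE, n = 2 per group, adjusted p = 0.0027, edgeR). In TPM the groups overlapped, at 31.4 and 25.7 against 30.4 and 27.5, and with plain totals the log2 fold change was 0.01 (adjusted p = 0.960, edgeR). Within a library, Dark stood at 2.22 and 2.21 times Dronc without treatment against 3.84 and 3.98 times after heat shock. This ratio was not planned and draws on the same values as the 2 fold changes, so it is given as a description. An antisense gene, asRNA:CR44390, covers 56.9% of the exonic bases of Dark, but its counts came to only 0.81% of those of Dark without treatment against 1.44% after heat shock.

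Relative to the median gene the effector caspases went in opposite directions, while plain totals put both below 0, at -0.85 for Drice and -0.12 for Dcp-1. Drice (FBgn0019972, 3R, 29799658 to 29801584, plus strand), which carries much of the effector activity in fly cells, had 806 and 776 counts without treatment against 529 and 436 after heat shock. Its CPM values were 64.5 and 63.4 without treatment against 52.8 and 49.9 after heat shock, without overlap and with untreated libraries close together. The log2 fold change was -0.31 ± 0.07 (SE, n = 2 per group, adjusted p = 0.0064, edgeR), and DESeq2 gave -0.33 with an adjusted p of 0.0739.

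Dcp-1 (FBgn0010501, 2R, 23551313 to 23553547, plus strand), the effector caspase best known from the death of germ cells in the ovary, had 274 and 311 counts without treatment against 324 and 268 after heat shock. In CPM these were 21.9 and 25.4 against 32.3 and 30.7. The fitted log2 fold change was 0.41 ± 0.10 (SE, n = 2 per group, adjusted p = 0.0113, edgeR). With plain totals it turned to -0.12 (adjusted p = 0.304, edgeR), DESeq2 gave 0.40 with an adjusted p of 0.137, and in TPM the groups overlapped. The ratio of Drice to Dcp-1 within a library, which no scaling touches, was 2.66 and 2.26 without treatment against 1.48 and 1.47 after heat shock. It too was not planned, restates the fold changes of the 2 genes, and is given as a description.

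Dcp-1 overlaps pita, a gene on the opposite strand, over 13.7% of its exonic bases. pita was more abundant, at 60.3 and 57.4 CPM without treatment against 38.1 and 46.7 after heat shock, and was called lower (-0.48 ± 0.10, adjusted p = 0.0052, edgeR). Whether the counting used the strand is not stated, so reads in the shared stretch cannot be told apart here.

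p53 (FBgn0039044, 3R, 23049657 to 23054082, minus strand, 4 transcripts) had 165 and 164 counts without treatment against 92.2 and 97.4 after heat shock. In CPM it was at 13.2 and 13.4 without treatment against 9.18 and 11.1 after heat shock, without overlap. The log2 fold change was -0.40 ± 0.14 (SE, n = 2 per group) with an adjusted p of 0.0505 in edgeR, just on the far side of the threshold. Fits close to this one fell on either side, with 0.0433 when edgeR estimated dispersion robustly, 0.0462 in limma-voom, 0.0588 with a replicate block and 0.350 in DESeq2. When a library was left out of the edgeR fit, it was -0.40 without the first untreated library (adjusted p = 0.0927), -0.38 without the second (0.105), -0.26 without the first heat shock library (0.334) and -0.53 without the second (0.0233). With plain totals it was -0.93 with an adjusted p of 7.5e-05.

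The antisense gene asRNA:CR46089 covers 38.0% of the exonic bases of p53. It had 9.71 and 6.84 CPM without treatment against 11.2 and 11.4 after heat shock, a log2 fold change of 0.45 ± 0.18 that did not pass (adjusted p = 0.0775, edgeR). Its counts were 62.5% of those of p53 without treatment against 112% after heat shock. Summed with this partner, p53 was at 22.9 and 20.2 CPM without treatment against 20.4 and 22.6 after heat shock, and the groups overlapped. How reads were divided between these genes was not tested.

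The plot of fold changes under 3 scalings shows what the scaling moves. A change of scaling moves the log2 fold changes of all genes by nearly the same amount. Values relative to the median gene therefore had to stay nearly the same, and their agreement is no test. rpr was 1.32 above it with TMM and 1.32 with plain totals, hid 0.61 and 0.61, Dark 0.57 and 0.56, and Dcp-1 0.44 and 0.44. Diap1 was at -0.29 and -0.29, Drice at -0.29 and -0.29, Dronc at -0.25 and -0.25, and p53 at -0.37 and -0.37. What differed was the position of the median gene itself.

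**Figure D4:**
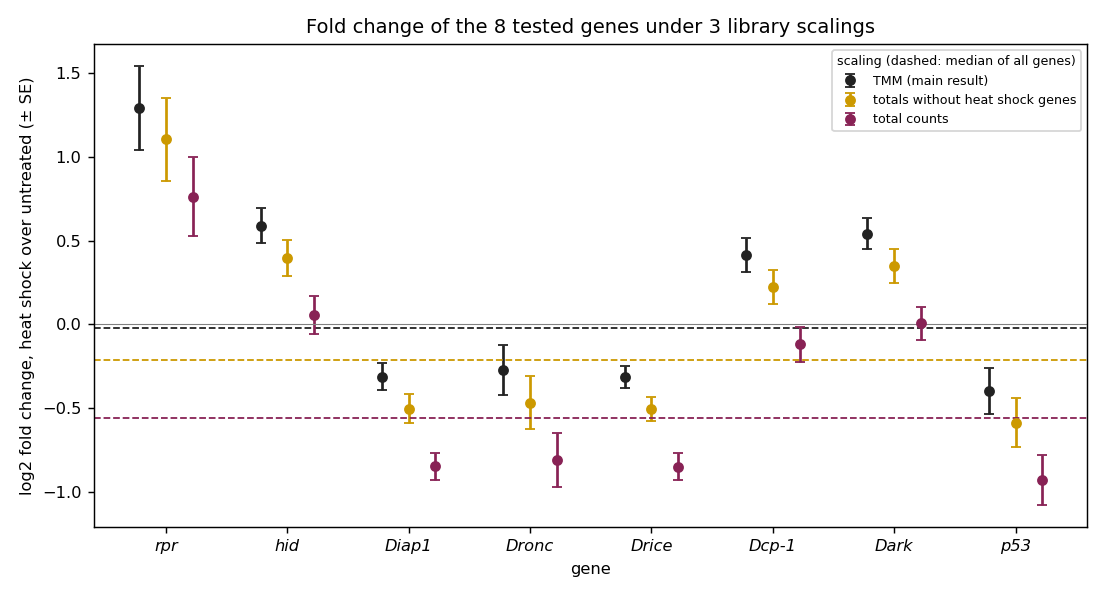
Log2 fold changes (heat shock over untreated, ± SE) of the 8 tested genes under 3 library scalings, with dashed lines at the median of all tested genes under each. The 8 genes keep their distances to the median, which a change of scaling leaves nearly the same for any gene. rpr stays above 0 under all 3, and hid, Dark and Dcp-1 reach 0.06, 0.01 and -0.12 with plain totals.

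The wider pathway was described with 44 other genes in 6 lists, of which 37 could be tested. Of these, 7 were called higher and 6 lower (18.9% and 16.2%), near the 21.4% and 18.6% of all genes, and these include genes that the filter favoured. Buffy, Drep2, Drep3 and Corp passed the filter only through the heat shock libraries, and a gene that enters the test in that way had to differ. Among the 33 that passed in both groups, 3 were called higher (9.09%), against 18.5% of the 8303 genes that did so, and both medians were -0.04. With DESeq2 1 pathway gene was called lower in place of 6. That fit called 4.22% of all its genes lower, and gave no adjusted p to 3881 of 14297.

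Of the other caspases, Dredd, which acts in immune signalling, was at 9.85 and 9.80 CPM without treatment against 9.08 and 10.8 after heat shock. Strica, a caspase with a long serine and threonine rich prodomain, was at 16.2 and 16.8 against 15.5 and 19.0. Both overlapped between the groups, with log2 fold changes of 0.01 ± 0.15 and 0.05 ± 0.13. Decay had at most 1 count in a library and Damm at most 6, and neither was tested. Fadd, the adaptor that brings Dredd into its signalling complex, was called lower at -0.40 ± 0.12 (adjusted p = 0.0284, edgeR), and lost the call without the first untreated library (-0.28, adjusted p = 0.151), the first heat shock library (-0.41, 0.0599) or the second heat shock library (-0.40, 0.0508).

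The other inhibitors of apoptosis stayed close to the median gene. Diap2, which acts mainly in immune signalling, was at 84.2 and 77.8 CPM without treatment against 82.0 and 83.3 after heat shock (0.03 ± 0.07). Bruce, a very large ubiquitin-conjugating protein, was at 563 and 537 against 506 and 522 (-0.10 ± 0.06, adjusted p = 0.229, edgeR), and Det, the fly survivin relative, at 14.4 and 14.4 against 13.7 and 14.4 (-0.04 ± 0.12). None of these 3 passed the threshold, and with plain totals all 3 were called lower, at -0.51, -0.63 and -0.57.

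In the Bcl-2 family, Debcl, the member with killing activity in flies, was at 77.6 and 87.0 CPM without treatment against 84.2 and 80.7 after heat shock (0.00 ± 0.08). Buffy, its relative, had 4 and 5 counts without treatment and 19 and 17 after heat shock. It entered the test only through the heat shock libraries, so its values are given as a description.

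Among partners of Diap1, HtrA2, a mitochondrial protease that can bind it, was called lower, from 11.3 and 10.8 CPM to 7.58 and 6.41 (-0.65 ± 0.15, adjusted p = 0.0101, edgeR; DESeq2, 0.135). eff, a ubiquitin-conjugating enzyme that works with Diap1, was the 1 gene of these 5 called higher (20.0%, near the 21.4% of all genes tested).

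Of the genes of DNA fragmentation, Drep4, the caspase-activated nuclease, was lower, from 24.4 and 20.8 CPM to 14.3 and 16.1 (-0.58 ± 0.12, adjusted p = 0.0073, edgeR; DESeq2, 0.0528), and 52.7% of its exonic bases are covered by a gene on the opposite strand. Drep2 and Drep3 share a domain with it. Drep2 had 3 and 8 counts without treatment and 48 and 58 after heat shock, and Drep3 had 3 and 1 and then 22.1 and 17.1. Both entered the test only through the heat shock libraries, and no test is given for them. Of the 351 genes that entered the test through the heat shock libraries alone, 98.6% were called higher. Cyt-c-p, the somatic cytochrome c, and drpr, an engulfment receptor, were at 0.12 ± 0.08 and -0.51 ± 0.24, and neither passed the threshold.

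Of the 8 genes of the p53 and DNA damage list, 2 were lower, the checkpoint kinases lok and grp, at -0.35 ± 0.06 and -0.29 ± 0.09. Corp, an inhibitor of p53 in flies, had 3 and 5 counts without treatment and 18 and 14 after heat shock, and it too entered the test only through the heat shock libraries.

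Among the 10 known regulators of the death activators, 7 could be tested. Of these, 2 were called higher (28.6%) and 1 lower (14.3%), against 21.4% and 18.6% of all genes tested. Eip74EF, an ecdysone-induced transcription factor, went from 33.4 and 37.5 CPM to 70.8 and 69.98 (0.99 ± 0.08, adjusted p = 3.3e-05, edgeR), and stayed higher with plain totals. br, another ecdysone-induced factor, was also called higher (0.40 ± 0.11) and foxo lower (-0.26 ± 0.07). EcR and usp, the subunits of the ecdysone receptor, were at 0.07 ± 0.06 and 0.00 ± 0.11 and did not pass.

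**Figure D5:**
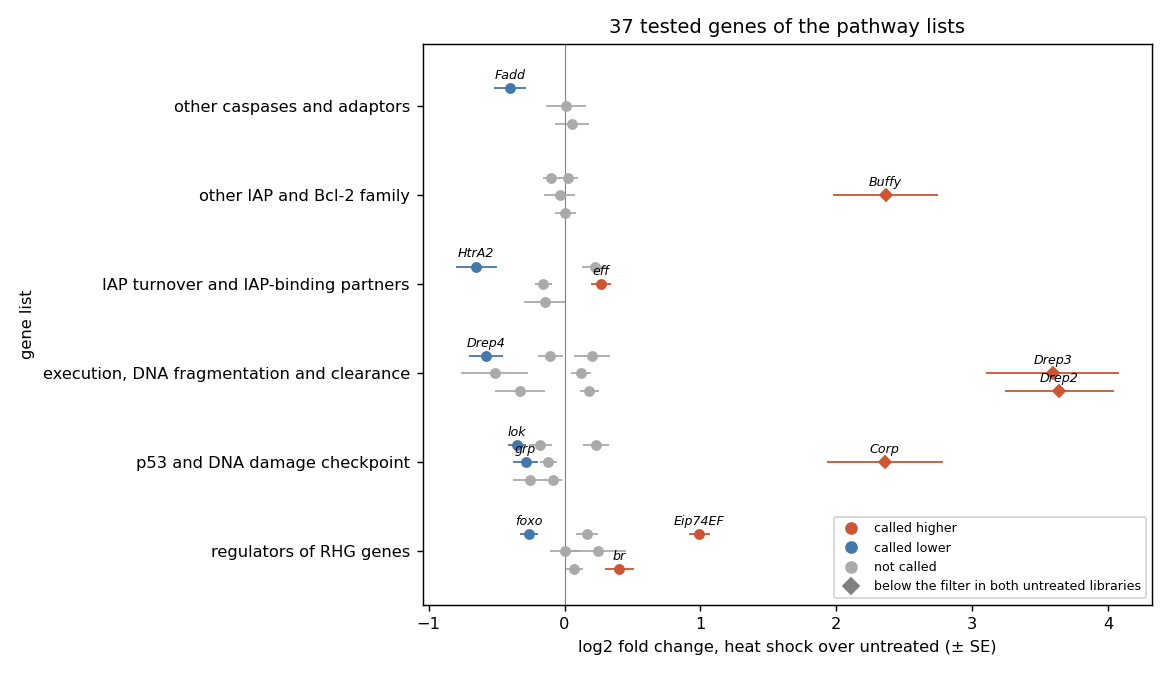
Log2 fold changes (heat shock over untreated, ± SE) of the 37 tested genes of the 6 pathway lists, coloured by call, with diamonds for genes below the filter in both untreated libraries. Most genes lie within 0.5 of 0, and the 4 genes beyond 2 (Buffy, Corp, Drep2, Drep3) are all diamonds.

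Markers of other cell types also differed between these libraries. Of 12 such markers 8 were tested, 3 of which were called higher and 1 lower, against 21.4% and 18.6% of all genes. Of those called higher only Lsp1beta passed the filter in both groups, and nSyb and Fbp1 entered through the heat shock libraries alone. The 3 fat body markers summed to 1.17 and 0.96 TPM without treatment against 15.6 and 15.4 after heat shock, nearly all of it Lsp1beta, a larval storage protein. Muscle markers summed to 28.2 and 30.2 TPM without treatment against 16.3 and 15.2 after heat shock. The sum of the hemocyte-like markers also fell, from 341.6 and 347.8 TPM to 228.1 and 215.8. On log2(TPM + 1) the median change of all tested genes was -0.51, so a fall in TPM is common. With TMM the muscle marker Act57B was called lower at -0.37 ± 0.11 (adjusted p = 0.0251, edgeR), and Mhc was not called. Of the 5 hemocyte-like markers tested, srp (0.37 ± 0.08) and Col4a1 (0.23 ± 0.07) were called higher and crq (-0.45 ± 0.06) lower. These are 40.0% and 20.0% of the 5, and Hml and Pxn were not called. The part of such changes in the values of the 10 genes was not tested.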

How the data were processed

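Poly(A) RNA sequencing of 2 untreated and 2 heat shock libraries was grouped by the stress in the labels, which name no batch. The deposited tables, per the labels from Trimmomatic 0.36, STAR 2.6.1c and RSEM 1.3.1 on BDGP6/dm6, hold an expected count and TPM per gene; the study's methods name featureCounts instead. RSEM settings and use of strand are not given in the sources used here. Pooled tables deposited by the authors were not used. Gene positions are 1-based, from a later annotation of the same assembly: 99.68% of 10189 single-transcript genes had the same length.

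Expected counts were rounded, filtered with filterByExpr (minimum count 10), scaled by TMM and tested in edgeR 4.0.16 under R 4.3.3 (quasi-likelihood, default dispersion, Benjamini-Hochberg, threshold 0.05), after a check on simulated data. Alternatives were DESeq2 1.42.0, limma 3.58.1 (voom, and TPM with pseudocounts of 1 and 0.1), other scalings and filters, a stricter threshold, a replicate block and leaving out each library. Robust dispersion, crossed pairs and sums with antisense partners were added after results were seen. Replicates of a group differed beyond sampling noise (chi-square per degree of freedom 4.91 and 6.20). Intervals and floors (3 counts) cover counting error only.

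The 10 genes and the lists were chosen with earlier results of these data known. Named were all 10, listed genes past the threshold with a log2 change of at least 0.5, other caspases and the IAP and Bcl-2 families; eff, lok, grp, br, foxo, Cyt-c-p, drpr, EcR and usp, and antisense partners, were named after their values were seen.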

Additional observations from a re-analysis of the deposited data

How the results depend on the processing

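Of the members called higher (4), 1 was left with total counts, 1 with log2(TPM + 1) and 1 with log2(TPM + 0.1), rpr in each case. Members called lower (2) became 4 with total counts, 4 when totals left out heat shock genes, 4 in both TPM fits, 1 in DESeq2 and 1 at an adjusted p under 0.01, and ranged from 1 to 3 when a library was left out. Pathway genes called higher (7) became 4 in DESeq2 and 4 under the filter of 10 counts per library, which leaves fewer genes to test, and ranged from 6 to 10 when a library was left out. Pathway genes called lower (6) became 29 with total counts, 15 when totals left out heat shock genes, 28 and 28 in the TPM fits, 1 in DESeq2 and 2 at an adjusted p under 0.01, and ranged from 3 to 7 when a library was left out. In the same fits, total counts called 71.2% of all genes lower, and totals without heat shock genes 40.2%. The TPM fits called 69.55% and 69.06% lower. DESeq2 called 4.22% lower and 8.54% higher of its 14297 genes, 3881 of which had no adjusted p. At an adjusted p under 0.01, 8.38% were called lower. Called higher were 8.75% with total counts, 8.62% and 8.39% in the TPM fits, and 19.8% under the filter of 10 counts per library. The scalings moved the median gene by -0.53 (total counts), -0.19 (totals without heat shock genes), -0.48 (log2(TPM + 1)) and -0.52 (log2(TPM + 0.1)), and total counts cut the higher share of all calls from 53.6% to 10.9%. For the other changes the cause was not tested.

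Dcp-1 turned to -0.12, -0.10 and -0.10 under total counts and then on TPM with pseudocounts of 1 and 0.1. In the same order, Dredd turned to -0.52, -0.46 and -0.50, Diap2 to -0.51, -0.47 and -0.48, and Debcl to -0.53, -0.51 and -0.51, all called lower there, and Strica turned to -0.48 with total counts. hid and Dark lost their calls under these scalings, and Dronc and p53 gained one.

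Replicates share only a number, and same-numbered libraries deviated with a correlation of -0.17 over all genes and -0.38 over the 5735 genes with a mean of at least 10 CPM. The replicate block gave 4 members higher and 2 lower, and 7 pathway genes higher and 5 lower. The crossed pairing, tried after the data were seen, gave 4 and 3 members and 12 and 10 pathway genes. Robust dispersion gave 4 and 3, and 7 and 6. Of all genes, the replicate block called 20.0% higher and 17.2% lower, the crossed pairing 26.7% and 26.2%, and robust dispersion 21.6% and 18.9%. By CPM per kilobase in place of TPM, the 10 members kept their order in untreated cells. Depth limits grim and skl.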
